A study of Mus musculus with 12 samples.

Results

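The genes described here are the G1 cyclins, the kinases they activate and Myc: Ccnd1, Ccnd2, Ccnd3, Ccne1, Ccne2, Cdk2, Cdk4, Cdk6 and Myc. They were chosen by name, as 9 genes out of 15892 gene symbols with a tested entry at 1 stage or more, and the rule used no difference between samples. An entry is 1 assembled gene of a table, and it is tested where the comparison software gave it the status OK. All 9 had a tested entry at each of 6 stages, and all 9 were among the 11068 genes with a mean level of at least 1 FPKM (fragments scaled to transcript length and to the size of the library) over the 12 values. The 12 samples are mouse H2K myogenic progenitors, wildtype or emerin-null, each with 1 messenger RNA sample at 6 stages: proliferation and differentiation days 0, 1, 2, 3 and 4. Emerin is a protein of the inner nuclear membrane. H2K progenitors of both genotypes carry a temperature-sensitive viral large T antigen under an interferon-inducible promoter. Proliferating and day 0 progenitors of both genotypes were grown in high serum with interferon-γ at 20 units per ml. Day 0 progenitors had been replated at high density, and days 1 to 4 were counted from the change to low-serum medium without interferon-γ. By the study's methods the culture temperature was raised and the carbon dioxide lowered at the same change. Their effects cannot be told apart from that of the medium. The labels name no more than 1 cell line per genotype and give no age of the mice the lines came from. Each value pooled 3 plates of a sample, so the spread between plates is not known here, and neither is the sequencing depth.

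Progression from G1 into S phase is driven by cyclin-dependent kinases. D-type cyclins (Ccnd1, Ccnd2, Ccnd3) activate Cdk4 and Cdk6, which begin the phosphorylation of the retinoblastoma family of pocket proteins. E-type cyclins (Ccne1, Ccne2) then activate Cdk2, the pocket proteins release E2F factors, and E2F factors drive Ccne1 and genes of DNA synthesis. Myc is a transcription factor that pairs with Max and promotes growth and entry into the cycle. Myoblasts leave the cycle as they differentiate. Ccnd3 is known as the D-type cyclin that stays high in differentiated muscle, while Ccnd1 is lost. Large T antigen can bind the pocket proteins, and its activity was not measured here.

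Emd, the gene of emerin, was checked first. Its level was between 13.6 and 62.1 FPKM in the 6 wildtype samples. In the 6 emerin-null samples it was at most 3.10 FPKM, reached at day 2, and it was listed at 0 at day 1, so the ranges did not overlap. Myog, a regulator of muscle differentiation, was present in all samples at 186 to 1433 FPKM, and it was higher in proliferating progenitors (744 FPKM in wildtype, 806 in emerin-null) than at day 0 (198 and 186). Mki67, which marks cycling cells, was alike at day 0 (60.4 FPKM in wildtype, 60.3 in emerin-null). From day 2 to day 4 it lay between 0.0920 and 0.299 FPKM in wildtype and between 1.44 and 3.66 FPKM in emerin-null progenitors, the day 2 entry covering no more than chr7:135689786-135690137 of the gene. In bulk RNA, fewer cells that express a gene and less RNA per cell cannot be told apart.

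Markers of muscle progenitors were summed over 6 genes at 633 to 2376 FPKM in wildtype and 739 to 2378 FPKM in emerin-null samples. Of 5 fitted, Pax7 and Myf5 rose (mean log2 ratios 2.34 and 1.19, adjusted p = 0.00346 and 0.00352, limma). Endothelial markers summed to 2.94 to 5.36 FPKM in wildtype and 2.85 to 6.39 FPKM in emerin-null samples, with 5 of 6 below 1 FPKM throughout. Of 6 fibroblast markers 4 had no tested entry or stayed below 1 FPKM, and the summed level spanned 10.3 to 46.8 FPKM (wildtype) and 5.89 to 58.8 FPKM (emerin-null). The only fibroblast marker fitted, Col1a1, stood at 7.61 FPKM in wildtype and 51.4 FPKM in emerin-null progenitors at day 4, without passing the fit over stages. At day 0 it stood at 22.7 FPKM in wildtype and 4.97 FPKM in emerin-null, and it was higher in emerin-null at 3 of 6 stages. With wildtype given first, the sums for smooth muscle and pericytes were 886 to 2593 FPKM and 887 to 2119 FPKM, and Myh11 had no tested entry. Of 3 fitted, Cspg4 rose (2.54, adjusted p = 7.46e-05), at no more than 2.89 FPKM in any sample. The other 2 were not called. Acta2, with most of the summed level, had a mean log2 ratio of -0.24 and was higher in emerin-null at 1 of 6 stages. Tagln, in an entry joined with another gene at 5 stages, had 0.06. For macrophages the sums were 14.9 to 108 FPKM and 21.7 to 119 FPKM, and Ptprc, Csf1r and Adgre1 had no tested entry. Cd68 rose (0.88, adjusted p = 0.0255) in an entry joined with another gene at all 6 stages, and Itgam had a mean log2 ratio of -0.16 (adjusted p = 0.326). Adipocyte sums were 6.90 to 63.4 FPKM and 7.09 to 35.3 FPKM, Adipoq and Plin1 had no tested entry, and Cebpa fell by 0.77 (adjusted p = 0.00788). Neural and glial sums were 1.56 to 34.9 FPKM and 5.64 to 33.9 FPKM, with no tested entry for Gfap and Sox10. The neural sum was higher in emerin-null progenitors at days 1 to 4 and lower at the other stages, and Tubb3 stood at 4.02 FPKM (wildtype) and 17.2 FPKM (emerin-null) at day 2, against 1.08 and 5.24 FPKM at day 4 (mean log2 ratio 1.15, adjusted p = 0.0890). The part of these cell types in the results on cyclins, kinases and Myc was not tested.

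Entries were assembled separately at each stage and some joined neighbouring genes. Over 9 genes and 6 stages, 19 of the 54 chosen entries carried the name of another gene. This count leaves out microRNAs, small nucleolar RNAs and provisional names such as 9330179D12Rik. Ccnd1, Ccnd2, Ccne1, Cdk6 and Myc shared their entries with no other named protein-coding gene at any stage, though those of Ccnd1 also carried Mir3962 and those of Ccnd2 the transcript 9330179D12Rik. Ccnd3 was joined with Bysl at every stage and with Med20 at all stages but day 0. Ccne2 was joined with Ints8 and Cdk4 with Tspan31 at every stage, and Cdk2 with Pmel in proliferating progenitors. Where a gene had several tested entries at a stage, in 19 of the 54 cases, the one with the largest sum of both genotypes' FPKM was taken.

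The order of mean levels over the 12 samples (FPKM, corrected for length) began with Ccnd3 at 168 ± 60.5 (SD, n = 12 values) and Cdk4 at 148 ± 99.3. Ccnd1 followed at 52.9 ± 54.4 and Cdk2 at 49.8 ± 9.32. Ccne1 stood at 25.7 ± 20.6, Ccnd2 at 24.9 ± 10.4 and Ccne2 at 18.1 ± 6.36. Myc at 8.60 ± 6.89 and Cdk6 at 6.77 ± 6.70 were lowest. All 8 pairs of neighbours in this order overlapped in range, so no neighbours were separated beyond the spread over stages. Cdk2 had the narrowest spread relative to its mean and Ccnd1 the widest.

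**Figure D1:**
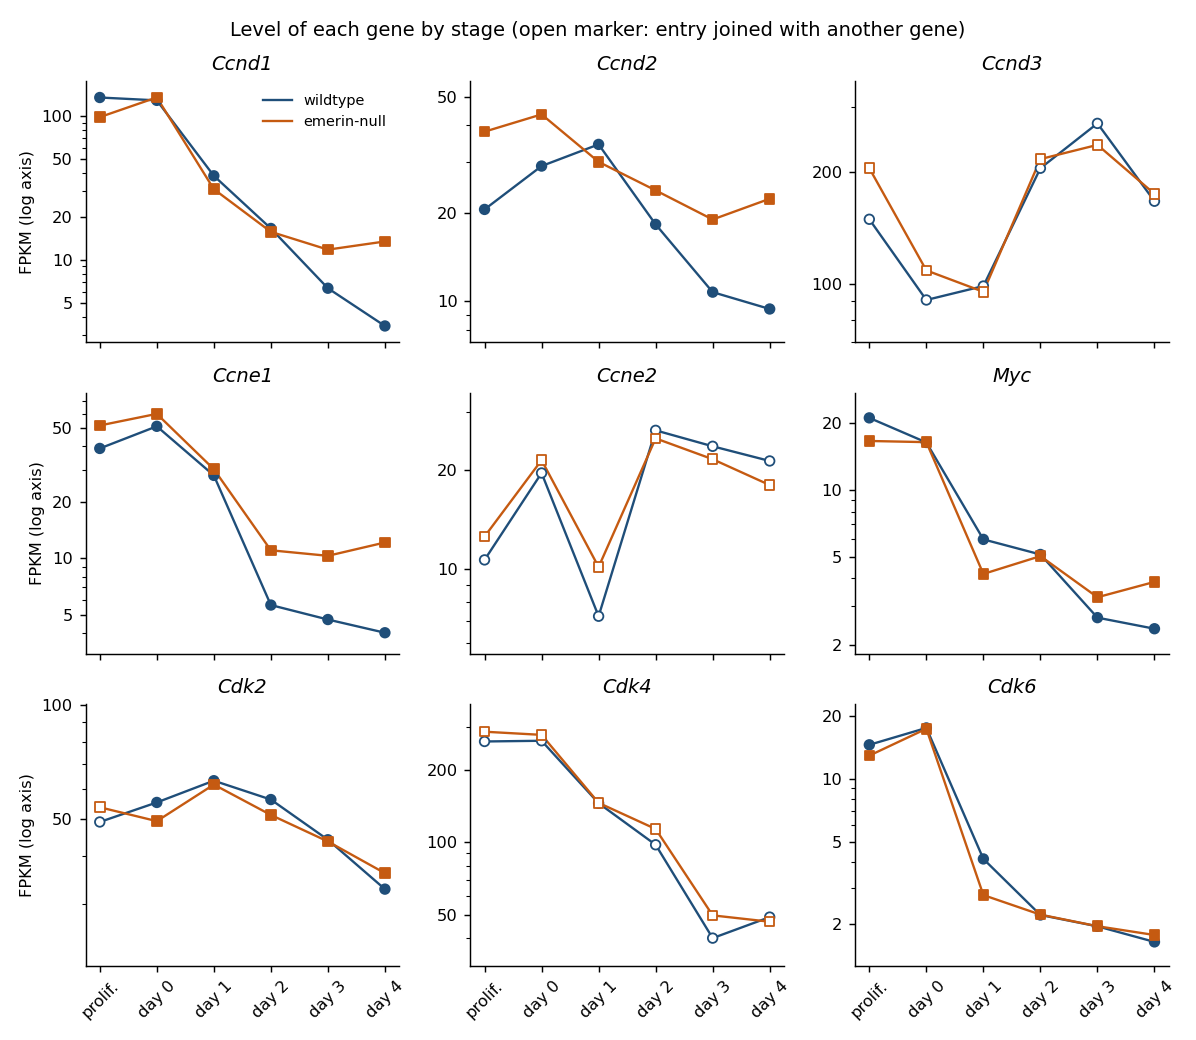
Level of the 9 genes (FPKM, log axis) in wildtype (circles, blue) and emerin-null (squares, orange) progenitors at the 6 stages, 1 pooled value per point and no error bars. Open markers are entries joined with another gene. Ccnd1, Cdk4, Cdk6 and Myc are high in growth medium and low by day 3 in both genotypes, Ccnd3 is highest at day 3, and the emerin-null lines of Ccnd1, Ccnd2, Ccne1 and Myc lie above the wildtype lines at days 3 and 4.

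The D-type cyclins differed from one another in their course. Ccnd1 (chr7:144929931-144939925 in GRCm38, minus strand) stood at 135 FPKM in proliferating wildtype progenitors, then at 129, 38.5, 16.5, 6.35 and 3.47 FPKM from day 0 to day 4. In emerin-null progenitors it stood at 98.5 FPKM while proliferating and then at 135, 31.1, 15.7, 11.8 and 13.4 FPKM. The genotypes were close from day 0 to day 2 and parted afterwards, with lower levels in wildtype at days 3 and 4. Ccnd1 was 1.84-fold higher in emerin-null progenitors at day 3 and 3.79-fold higher at day 4, and 1.37-fold lower while proliferating. These and all following folds between genotypes are ratios of FPKM + 0.1.

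Ccnd2 (chr6:127125162-127152193, minus strand) stood at 20.6 FPKM in proliferating wildtype progenitors, then at 29.0, 34.4, 18.3, 10.7 and 9.41 FPKM from day 0 to day 4. In emerin-null progenitors the levels were 37.97 FPKM while proliferating and 43.5, 29.9, 23.9, 19.0 and 22.4 FPKM afterwards. Emerin-null progenitors thus held the higher level at 5 of 6 stages, with day 1 as the exception. The ratio was 1.84 while proliferating, 1.76 at day 3 and 2.37 at day 4. Wildtype reached its highest Ccnd2 level at day 1 and emerin-null at day 0.

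Ccnd3 (chr17:47505051-47599691, plus strand), measured with Bysl in the same entry, stood at 149 FPKM in proliferating wildtype progenitors and then at 90.6, 98.7, 205, 270.5 and 167 FPKM. The emerin-null levels were 205 FPKM while proliferating and 109, 95.3, 217, 237 and 175 FPKM afterwards. Both genotypes were higher at day 2 than at day 1, and their ratio stayed between 0.88 and 1.37. Bysl and Med20 are genes of ribosome assembly and of the Mediator complex, and how much of the signal is theirs cannot be told from these values.

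Ccne1 (chr7:38097984-38107534, minus strand) was the E-type cyclin with an entry of its own. In wildtype progenitors it stood at 39.0 FPKM while proliferating and at 51.3, 27.9, 5.62, 4.70 and 3.99 FPKM from day 0 to day 4. In emerin-null progenitors it stood at 51.8 FPKM and then at 59.8, 30.2, 11.1, 10.3 and 12.2 FPKM. Emerin-null progenitors were higher at all 6 stages. The ratio was 1.33 while proliferating, 1.17 at day 0 and 1.08 at day 1, then 1.95, 2.17 and 3.00 at days 2, 3 and 4. Over these last 3 days the wildtype range (3.99 to 5.62 FPKM) and the emerin-null range (10.3 to 12.2 FPKM) did not overlap.

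Ccne2 (chr4:11191351-11204779, plus strand) could not be followed through differentiation in the same way. Wildtype levels were 10.7 FPKM while proliferating and 19.6, 7.22, 26.3, 23.6 and 21.3 FPKM afterwards, against 12.6, 21.4, 10.2, 24.9, 21.5 and 18.0 FPKM in emerin-null progenitors. The entries of days 2, 3 and 4 started at positions 11204508, 11204491 and 11204471, near the 3′ end of Ccne2, and ran through Ints8 (chr4:11199158-11254258, minus strand). These 3 values therefore cover the gene of an Integrator subunit more than Ccne2. At day 4 a separate entry inside Ccne2 (chr4:11191747-11203006) had 1.55 FPKM in wildtype and 3.09 FPKM in emerin-null progenitors, the reverse of the order in the larger entry.

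Among the kinases, Cdk4 and Cdk6 were lower in differentiation medium, and Cdk2 varied less and was lowest at day 4. Cdk4 (chr10:127063534-127067920, plus strand) stood at 262 FPKM in proliferating wildtype progenitors and at 264, 145, 97.7, 40.0 and 48.9 FPKM from day 0 to day 4. The emerin-null levels were 288, 279, 146, 114, 49.7 and 46.8 FPKM in the same order. In this chosen entry the ratio stayed between 0.96 and 1.24, and both genotypes were below 50 FPKM at days 3 and 4. A second joined entry, present at days 0, 2, 3 and 4, had the opposite direction at each of them. Its wildtype and emerin-null levels were 33.8 and 31.7 FPKM at day 0, 56.7 and 46.4 FPKM at day 2, 27.5 and 24.3 FPKM at day 3 and 35.3 and 57.7 FPKM at day 4, so the choice of entry decides the direction there.

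Cdk6 (chr5:3341485-3531008, plus strand) stood at 14.6 FPKM in proliferating wildtype progenitors and at 17.6, 4.12, 2.21, 1.95 and 1.64 FPKM afterwards. In emerin-null progenitors the levels were 13.0, 17.4, 2.76, 2.22, 1.96 and 1.77 FPKM. Both genotypes were at their lowest at day 4 and differed most at day 1, where Cdk6 was 1.48-fold lower in emerin-null progenitors. Cdk2 (chr10:128697939-128705031, minus strand) stood at 49.2, 55.4, 63.2, 56.4, 44.2 and 32.8 FPKM in wildtype progenitors from proliferation to day 4. The emerin-null levels were 53.8, 49.5, 61.7, 51.4, 43.8 and 36.2 FPKM. Cdk2 peaked at day 1 in both genotypes, and its ratio stayed between 0.89 and 1.10.

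Myc (chr15:61985391-61990374, plus strand) stood at 21.2 FPKM in proliferating wildtype progenitors and at 16.4, 5.99, 5.12, 2.65 and 2.36 FPKM from day 0 to day 4. Emerin-null progenitors had 16.7 FPKM of Myc during proliferation and 16.5, 4.18, 5.03, 3.28 and 3.85 FPKM afterwards. Emerin-null progenitors had less Myc while proliferating and at day 1, and more at days 3 and 4. The ratio was 0.79 while proliferating, 0.70 at day 1 and 1.60 at day 4.

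The RefSeq promoter table (GRCm38.p6) held 5 of the 9 genes, each promoter covering 250 bases before to 50 bases after the start. The promoters of Cdk4 and Cdk6, whose levels were lower in differentiation medium together with Myc, are shown beside those of Cdk2, whose level varied least relative to its mean, and Ccne1, which had the largest mean log2 ratio between genotypes of the 9 over the stages. Ccne1 was lower in differentiation medium as well, in both genotypes. Capitals mark the E-box bound by Myc with Max (CACGTG, the same on both strands) and E2F motifs (TTTCCCGC, TTTCGCGC, TTTGCCGC or TTTGGCGC, searched on both strands). The windows are chr10:127063285-127063584 (plus strand) for Cdk4, chr5:3343643-3343942 (plus) for Cdk6, chr10:128705002-128705301 (minus) for Cdk2 and chr7:38107441-38107740 (minus) for Ccne1, each written in the direction of transcription.
Cdk4: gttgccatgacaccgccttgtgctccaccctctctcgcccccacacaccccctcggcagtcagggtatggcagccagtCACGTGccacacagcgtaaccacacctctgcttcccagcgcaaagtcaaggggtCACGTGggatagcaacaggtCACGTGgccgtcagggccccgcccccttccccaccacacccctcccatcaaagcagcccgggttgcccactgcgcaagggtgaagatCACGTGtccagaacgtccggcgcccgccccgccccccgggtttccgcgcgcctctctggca
Cdk6: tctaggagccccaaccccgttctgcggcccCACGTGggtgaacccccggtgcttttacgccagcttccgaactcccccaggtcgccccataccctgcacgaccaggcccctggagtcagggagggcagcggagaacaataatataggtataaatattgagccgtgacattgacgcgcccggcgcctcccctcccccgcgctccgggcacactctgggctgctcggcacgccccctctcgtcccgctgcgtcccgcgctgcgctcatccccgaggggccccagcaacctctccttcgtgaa
Cdk2: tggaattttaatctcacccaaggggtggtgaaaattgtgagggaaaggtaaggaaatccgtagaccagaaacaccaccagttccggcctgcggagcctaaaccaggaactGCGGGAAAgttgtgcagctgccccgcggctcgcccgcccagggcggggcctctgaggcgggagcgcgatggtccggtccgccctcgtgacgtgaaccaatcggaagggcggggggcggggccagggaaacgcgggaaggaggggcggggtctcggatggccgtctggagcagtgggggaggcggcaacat
Ccne1: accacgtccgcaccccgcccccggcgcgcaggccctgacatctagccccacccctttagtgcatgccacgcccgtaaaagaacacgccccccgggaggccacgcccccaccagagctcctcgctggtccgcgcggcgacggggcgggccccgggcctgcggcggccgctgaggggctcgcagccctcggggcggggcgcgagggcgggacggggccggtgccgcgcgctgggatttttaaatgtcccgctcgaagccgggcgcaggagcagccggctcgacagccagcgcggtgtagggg

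The Cdk4 promoter held 4 E-boxes, which began 172, 118, 98 and 11 bases before the start. The Cdk6 promoter held 1, beginning 220 bases before the start. That window, from position 3343643, lies inside the span given for Cdk6, which begins at 3341485. Of 32851 promoters of the same length, 7.15% held this E-box, and 8 promoters held 4 or more, a number counted after the Cdk4 promoter had been read. The Cdk2 promoter held 1 E2F motif, read as GCGGGAAA and beginning 140 bases before the start, and 2.26% of all promoters held such a motif. Neither motif was found in the Ccne1 window or at the 2 starts listed for Ccnd3. A match of letters is a description of the sequence and not a measured binding site.

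The change from growth to differentiation medium was read within each genotype as a ratio of FPKM + 0.1 without a test, because the tables of the stages were assembled and normalized separately. Between day 0 and day 1 wildtype progenitors had 4 of the 9 at least 2-fold lower (Ccnd1, Ccne2, Cdk6 and Myc), beside 13.6% of all fitted genes. In emerin-null progenitors the same 4 were at least 2-fold lower, beside 14.6% of all genes. For Ccne2 the 2 days do not compare like with like, since its day 0 entry (chr4:11190902-11254261) ran through Ints8 and its day 1 entry (chr4:11191724-11205568) ended just past the 3′ end of Ccne2. Cdk6 was 4.19-fold lower in wildtype and 6.13-fold lower in emerin-null progenitors, Ccnd1 3.34-fold and 4.34-fold, and Myc 2.71-fold and 3.87-fold. The Cdk6 folds are those of the chosen entries. A second Cdk6 entry held 0.646 FPKM (wildtype) and 0.588 FPKM (emerin-null) at day 0, against 3.06 and 2.06 FPKM at day 1. Summed entries would therefore give smaller folds for Cdk6. Ccnd1, Cdk6 and Myc were thus already low after 1 day in differentiation medium, in both genotypes.

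Between day 0 and day 4 wildtype progenitors had 6 of the 9 at least 2-fold lower (30.7% of all genes) and emerin-null progenitors 5 (26.8% of all genes). Ccnd2 was the gene past 2-fold in wildtype (3.06-fold lower) but not in emerin-null progenitors (1.94-fold lower). Ccnd1 was 36.1-fold lower in wildtype and 9.99-fold lower in emerin-null progenitors. Ccne1 was 12.6-fold and 4.88-fold lower, Myc 6.70-fold and 4.19-fold, Cdk6 10.2-fold and 9.36-fold, and Cdk4 5.39-fold and 5.96-fold. The Cdk4 folds are those of the chosen entries. Its second joined entry held 33.8 FPKM (wildtype) and 31.7 FPKM (emerin-null) at day 0, against 35.3 and 57.7 FPKM at day 4. Summed entries would therefore give smaller folds for Cdk4, with the larger one in wildtype. For Ccnd1, Ccne1 and Myc the wildtype ratio was the larger, while the chosen entries of Cdk4 and Cdk6 were close in both genotypes. Over all fitted genes the median log2 change between these days was -0.32 (wildtype) and -0.24 (emerin-null). After median-ratio scaling, which brings these medians to 0.02 and 0.01, Ccnd1 was 28.4-fold and 8.41-fold lower, and Ccne1 9.87-fold and 4.10-fold.

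**Figure D2:**
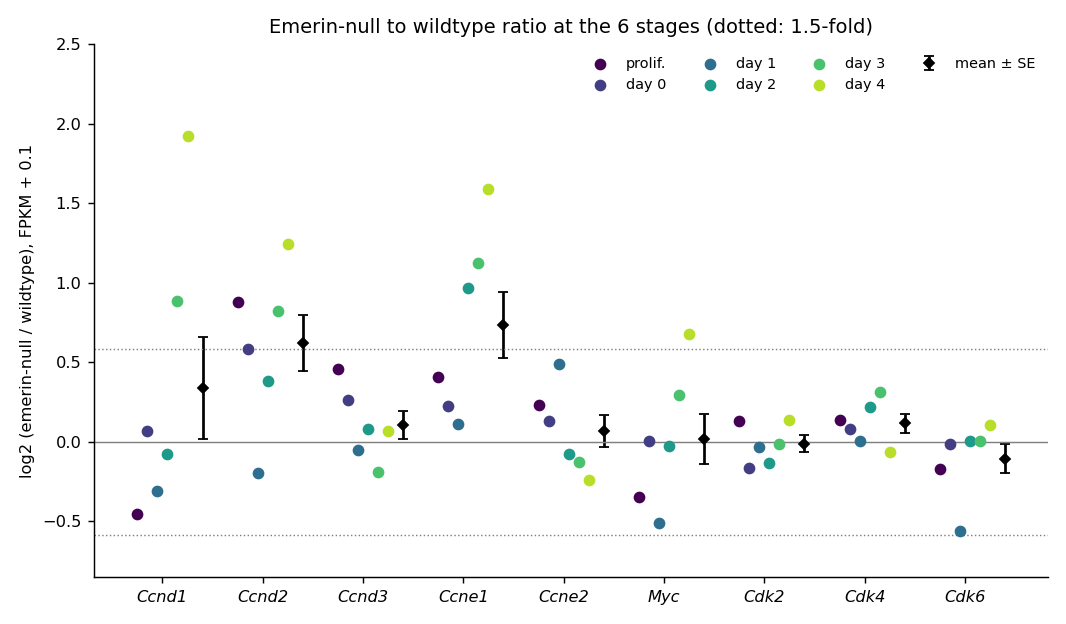
Log2 ratio of emerin-null to wildtype FPKM + 0.1 for the 9 genes, 1 coloured point per stage, with the mean over the 6 stages and its SE (limma) as a black diamond. Dotted lines mark 1.5-fold. Ccne1 lies above 0 at all 6 stages and Ccnd2 at 5, and the day 4 points of Ccnd1 (1.92), Ccne1 (1.59), Ccnd2 (1.24) and Myc (0.68) lie above the upper dotted line.

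At single stages, with 1 pooled value per genotype and no test, a gene was counted where the ratio went past 1.5-fold. In proliferating progenitors this was Ccnd2 alone, higher in emerin-null, beside 4.82% of all genes higher and 5.12% lower. At day 0 it was none of the 9 (3.96% of all genes higher, 6.88% lower), with Ccnd2 just under the threshold at a log2 ratio of 0.58. At day 1 it was again none (4.81% higher, 5.53% lower), and the ratio of Cdk6, at -0.56, came closest. Ccne1, which stood out later, had ratios of 1.17 and 1.08 at these stages.

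The number of genes past 1.5-fold grew afterwards, all of them higher in emerin-null progenitors. At day 2 Ccne1 was past 1.5-fold (7.14% of all genes higher, 4.17% lower). At day 3 these were Ccnd1, Ccnd2 and Ccne1 (8.85% higher, 4.32% lower), and at day 4 Ccnd1, Ccnd2, Ccne1 and Myc (12.9% higher, 4.63% lower). No gene of the 9 was past 1.5-fold lower in emerin-null progenitors at any stage. At day 4 the ratio of Ccnd1 ranked at percentile 98.3 of all fitted genes, Ccne1 at 97.4, Ccnd2 at 95.6 and Myc at 89.1. The kinases Cdk2, Cdk4 and Cdk6 ranked at 60.2, 33.9 and 56.1. For Cdk4 this rank is that of the chosen entry, and its second joined entry was 1.63-fold higher in emerin-null progenitors at day 4.

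**Figure D3:**
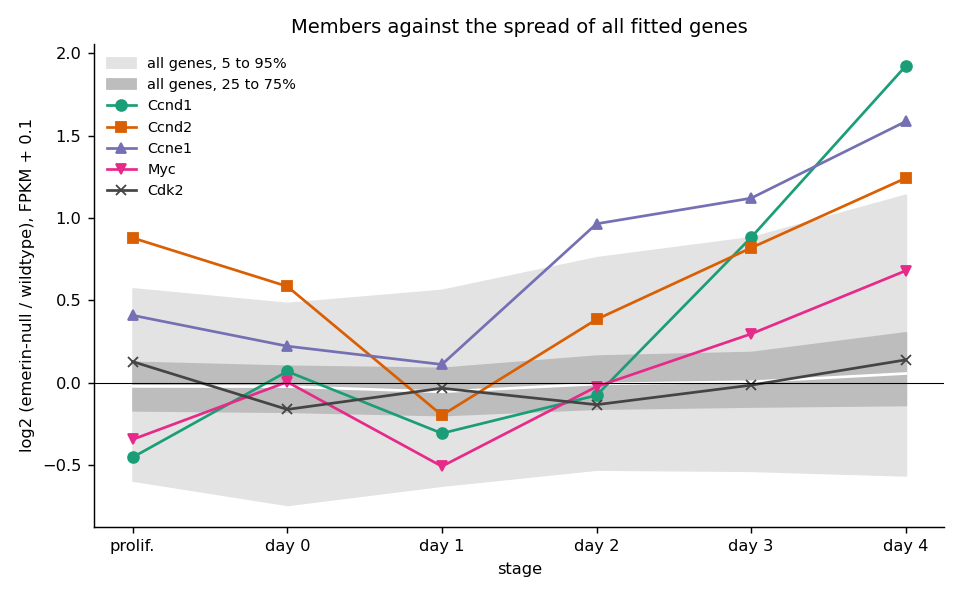
Log2 ratio of emerin-null to wildtype FPKM + 0.1 at each stage for Ccnd1, Ccnd2, Ccne1, Myc and Cdk2, against the central 5 to 95% (light grey) and 25 to 75% (dark grey) of all 11068 fitted genes and their median (white line). At day 4 Ccnd1, Ccne1 and Ccnd2 lie above the light band, whose upper edge is at 1.14, Myc lies inside it at 0.68, and Cdk2 lies inside the dark band at 0.14.

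Over the stages, the 6 within-stage log2 ratios of each gene were fitted with limma and p-values were adjusted by Benjamini-Hochberg over all 11068 genes. The spread in this fit is between stages, not between replicates, and each genotype is 1 line, so a call speaks of these lines. None of the 9 genes passed an adjusted p of 0.05, where 8.8% of all genes were called higher and 10.1% lower in emerin-null progenitors. At an unadjusted p below 0.05 there were 3943 of all 11068 genes and 2 of the 9, Ccne1 and Ccnd2. Ccne1 had a mean log2 ratio of 0.74 (SE 0.21, adjusted p = 0.0512 by limma) and was higher at 6 of 6 stages. Ccnd2 had a mean of 0.62 (SE 0.18, adjusted p = 0.0536 by limma) and was higher at 5 of 6. Both lay at the edge of the threshold, and 6 of the alternative settings moved both to the called side, with adjusted p-values from 0.0383 to 0.0486. With 1 stage left out the adjusted p of Ccne1 lay between 0.0554 and 0.135, and that of Ccnd2 between 0.0195 (without day 1) and 0.137. An exact sign-flip test over the 6 stages, 2-sided, gave p = 0.03125 for Ccne1, the smallest it can give, and p = 0.0625 for Ccnd2.

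The other 7 genes had smaller mean ratios or a larger spread. Ccnd1 had a mean log2 ratio of 0.34 (SE 0.32, adjusted p = 0.481 by limma) and was higher at 3 of 6 stages, days 0, 3 and 4. Its mean was 0.02 without day 4 and 0.50 without the proliferating stage. Cdk4 had 0.11 (SE 0.058), Ccnd3 0.10 (SE 0.086), Ccne2 0.07 (SE 0.10), Myc 0.02 (SE 0.15), Cdk2 -0.01 (SE 0.054) and Cdk6 -0.11 (SE 0.090), with adjusted p-values by limma between 0.204 and 0.948. A mean over stages describes Ccnd1 and Myc poorly, because their ratio changed sign along the course.

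A second limma fit asked whether the ratio differed between differentiation medium (days 1 to 4) and growth medium (proliferating and day 0). None of the 9 genes passed, where 0.298% of all genes did. At an unadjusted p below 0.05 there were 1400 of all 11068 genes and 1 of the 9, Ccnd3. Its ratio was lower in differentiation medium by a log2 difference of -0.38 (SE 0.11, adjusted p = 0.296 by limma). Ccnd1 had a difference of 0.80 (SE 0.65) and Ccne1 of 0.63 (SE 0.39). A slope of the log2 ratio over days 0 to 4, added after the values had been seen, was 0.37 per day for Ccne1 (SE 0.062, adjusted p = 0.056 by limma), 0.49 for Ccnd1 (SE 0.14, adjusted p = 0.129) and 0.22 for Myc (SE 0.083, adjusted p = 0.201). By this slope 288 of 11068 genes were called and none of the 9. At an unadjusted p below 0.05 there were 2717 of all 11068 genes and 3 of the 9.

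The other genes of the pathway were read from 10 lists by the same genotype fit. The counts below stand beside 8.8% of all genes called higher and 10.1% called lower by that fit. Over all fitted genes the median log2 ratio lay between -0.06 and 0.06 at every stage. CDK inhibitors, which block the cyclin-kinase complexes, had 1 of 7 higher and none lower. This was Cdkn1c, at 52.5 FPKM in wildtype and 239 FPKM in emerin-null progenitors during proliferation, against 24.1 and 152 FPKM at day 4. Its mean log2 ratio was 2.42 (SE 0.13, adjusted p = 0.000148 by limma), higher at 6 of 6 stages. Cdkn1a, a target of p53 that rises in differentiating muscle, had 509 FPKM in wildtype and 473 FPKM in emerin-null progenitors at day 4 and did not pass (mean log2 ratio -0.20, adjusted p = 0.0722).

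Pocket proteins and E2F factors had none of 12 fitted genes higher and 2 lower, E2f1 (mean log2 ratio -0.34, adjusted p = 0.0195, in an entry joined with another gene at all stages) and the repressor E2f6 (-0.21, adjusted p = 0.0357). Of 11 CDK activators, chaperones and inhibitory kinases 1 rose, Cdc25a, a phosphatase that activates Cdk2 (mean log2 ratio 0.28, adjusted p = 0.0247). Of 10 fitted genes for turnover of cyclins and Myc 1 rose, Skp2, which recruits Cdkn1b for degradation (0.48, adjusted p = 0.0404). Of 11 in the Myc and Max network 2 fell, Mxd1 (-0.33, adjusted p = 0.00938) and Mlx (-0.19, adjusted p = 0.0467). Mxd1 competes with Myc for Max. Of 18 Myc-responsive growth genes 1 rose, Cad, an enzyme of pyrimidine synthesis (0.14, adjusted p = 0.0295), and the median of the list was 0.05 against -0.01 over all genes. All of these p-values are from limma. The entry of Skp2 was joined with another gene at 4 of 6 stages, and those of Mlx and Cad at 5.

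E2F-responsive S phase genes had 1 of 16 called, Gins1, a subunit of the replicative helicase (mean log2 ratio 0.48, SE 0.12, adjusted p = 0.0343 by limma). Their median ratio was 0.02 while proliferating and 0.03 at day 0, then 0.18, 0.42, 0.66 and 1.05 from day 1 to day 4. At day 4, 10 of 16 were past 1.5-fold higher and none lower, beside 12.9% and 4.63% of all genes. Cyclins of S, G2 and M phase with Cdk1 had none of 5 called. Ccnb1, a mitotic cyclin, had 0.13 FPKM in wildtype and 2.22 FPKM in emerin-null progenitors at day 4 (mean log2 ratio over stages 1.45, SE 0.50, adjusted p = 0.0886 by limma). Ccnb2 had 0.29 and 3.61 FPKM at day 4 (0.82, SE 0.49, adjusted p = 0.278). Ccna2, in a joined entry at all 6 stages, had 33.9 and 28.8 FPKM at day 4 and the lower level in emerin-null at 6 of 6 stages (-0.18, SE 0.061, adjusted p = 0.0840). The median ratio of this list was 1.70 at day 4, beside 0.06 over all genes. Both lists lay close to the all-gene median in growth medium and above it at days 1 to 4.

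Cyclins and CDKs outside the G1 to S step had none of 19 higher and 4 lower, by small amounts: Ccnl2 (mean log2 ratio -0.22, adjusted p = 0.0458), Cdk9 (-0.18, adjusted p = 0.0159), Ccnc (-0.17, adjusted p = 0.0328) and Cdk5 (-0.16, adjusted p = 0.0199), all from limma. The entry of Ccnl2 was joined with another gene at 4 of 6 stages and that of Cdk5 at 2. Cdk9 and Ccnc act in transcription. Of 17 signalling genes upstream of Ccnd genes and Myc, 1 rose and 1 fell. Lef1, a factor of the Wnt pathway, had 2.59 FPKM in wildtype and 5.72 FPKM in emerin-null progenitors during proliferation, against 0.493 and 1.501 FPKM at day 4 (mean log2 ratio 1.22, SE 0.094, adjusted p = 0.000503 by limma). Map2k1, a kinase of the ERK cascade, fell by 0.33 (SE 0.033, adjusted p = 0.00158 by limma), in an entry joined with another gene at all 6 stages.

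**Figure D4:**
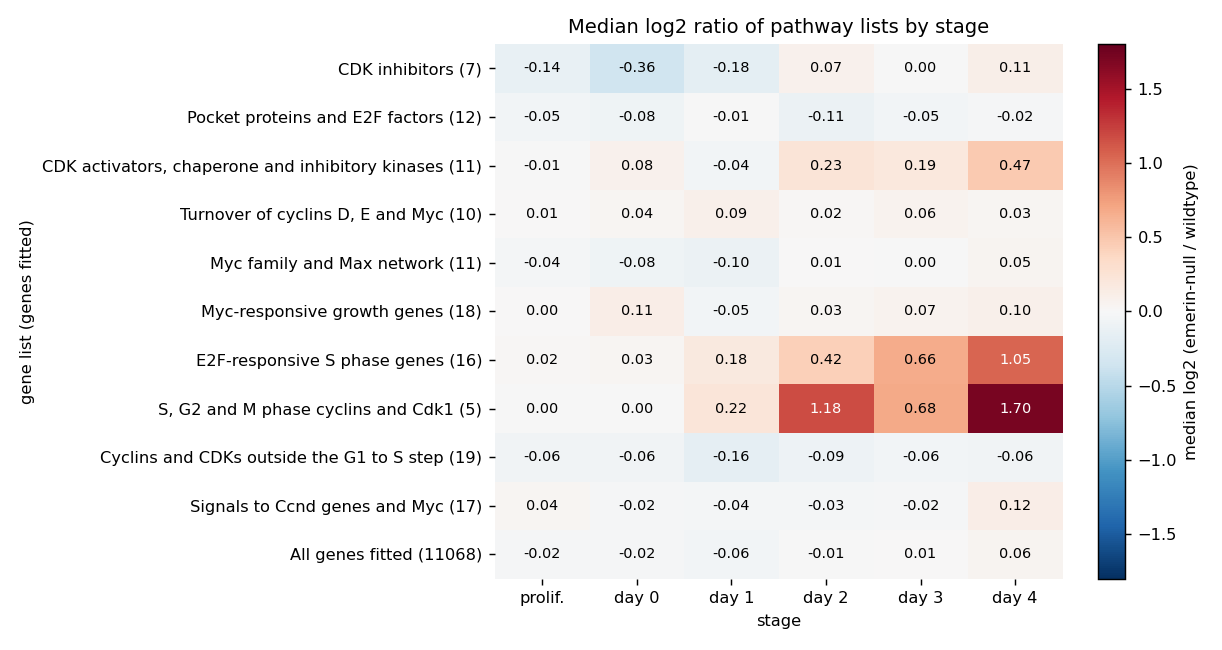
Median log2 ratio of emerin-null to wildtype FPKM + 0.1 by stage (columns) for the 10 pathway lists and for all fitted genes (rows, number of genes fitted in brackets), with the value in each cell and the colour scale in the same unit. The E2F-responsive list runs from 0.02 in proliferating progenitors to 1.05 at day 4 and the S, G2 and M phase cyclins reach 1.70, while all fitted genes stay between -0.06 and 0.06.

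The genes most like each of the 9 were those with the highest Pearson correlation of log2(FPKM + 0.1) over the 12 values, among genes alone at their locus. The 12 values are 6 stages in 2 lines, so such a correlation mostly follows the stages, and it is given as a description. Ccne1 was closest to Melk (0.996) and Nuf2 (0.995), a kinase of cycling cells and a kinetochore protein. Ccnd1 was closest to Steap1 and Atoh8 (both 0.992), Ccnd2 to Cav1 (0.984) and Plekho2 (0.953), and Ccnd3 to Psmb4 (0.935) and Sms (0.914). Cdk2 was closest to Lima1 (0.982) and Spnb2 (0.973), Cdk4 to Scaf11 (0.991) and Cand1 (0.990), Cdk6 to Zfp334 and Epb4.1l1 (both 0.994), and Myc to Pkd2 (0.988) and Arf3 (0.987). Ccne2, in its joined entry, was closest to Ube2a (0.941) and Blm (0.935). Among the 9, Myc was closest to Cdk6 (0.97), Ccnd1 (0.96) and Cdk4 (0.93), and Ccne1 to Ccnd1 (0.95). The joined entries of Ccnd3 and Ccne2 ran against the other 7, with negative correlations to each of them. For Ccne2 the entries changed along the course, and from day 2 on they covered Ints8 more than Ccne2. Its correlations, including those with Ube2a and Blm, therefore do not describe Ccne2 alone.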

How the data were processed

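The submitters' notes name FastQC, TopHat, Cuffdiff and the genome build mm10 (GRCm38) without version numbers. Tables deposited by the authors, 1 per stage, give 2 FPKM values per assembled entry, wildtype and emerin-null, each made by Cuffdiff from 3 plates. They also hold the authors' log2 fold, test statistic, p, q and call, and second sheets list called entries; none of these was used. FPKM values were read from the layout of the tables. No read counts or single plates were used, so depth and replicate spread are unknown. Labels and methods differ on the growth temperature, which entered no computation.

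Per gene and stage, the entry of status OK with the largest summed FPKM was taken. Log2 ratios used FPKM + 0.1. Genes with an OK entry at all 6 stages and a mean of at least 1 FPKM over the 12 values (11068) were fitted with limma (version 3.58.1, R 4.3.3) on the 6 ratios, 2-sided, with Benjamini-Hochberg adjustment, called at an adjusted p below 0.05. A second contrast set days 1 to 4 against proliferating and day 0. The scripts were tested on simulated data. Ratios at single stages (1.5-fold) and changes between stages (2-fold) carry no test. The spread in these fits is that between stages, not between replicates. Text names all 9 genes; per pathway list the called genes (up to 4, by size) or else the 2 with the largest mean ratio; Emd, Mki67 and Myog; and for each of the 9 the 2 genes of highest correlation. Other genes are named as markers or neighbours, and Cdkn1a was named after its values were seen. Ccna2 was also named outside this rule. The 9 genes, the lists and the tests were chosen with earlier results of these data known. Alternatives were another pseudocount, no filter, sums of entries, entries of any status, genes alone at their locus, other scalings, an intensity trend, another fold and leaving out each stage. Promoters are from RefSeq (GRCm38.p6), gene positions from GENCODE M21 (GRCm38). Python 3.11.15, pandas 2.3.3, numpy 2.4.6 and scipy 1.17.1 were used.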

Additional observations from a re-analysis of the deposited data

Results flagged for a closer look

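Ccnd2 from day 0 to day 1 and Ccnd1 from day 3 to day 4 went opposite ways in the genotypes by more than 1.5-fold. With 1 pooled value per genotype and stage, the difference was not tested. From day 0 to day 1 the log2 level of Ccnd2 changed by 0.24 in wildtype and by -0.54 in emerin-null progenitors, a difference (emerin-null minus wildtype) of -0.78. After median-ratio scaling the changes were 0.29 and -0.47. From day 3 to day 4 the log2 level of Ccnd1 changed by -0.85 in wildtype and by 0.19 in emerin-null progenitors, a difference of 1.04, and by -0.81 and 0.18 after the same scaling. Smaller opposite changes are not listed in full. Among them were Ccnd1 from proliferation to day 0 (-0.07 in wildtype, 0.46 in emerin-null) and Ccnd2 from day 3 to day 4 (-0.19 and 0.23).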

How the results depend on the processing

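The calls that moved were those at the threshold. Ccne1 and Ccnd2 were both called, so that 2 of the genes passed in place of 0, with a pseudocount of 1, with sums of entries, among genes alone at their locus, with the median ratio set to 0 at each stage, with upper-quartile scaling and with an intensity trend; with 1 stage left out 0 to 1 passed, the 1 being Ccnd2 without day 1. With 1 stage left out, genes called over the stages ranged from 1066 (without day 2) to 1709 (without day 4) in place of 2093 (other settings: 1457 among genes alone at their locus to 2259 with no filter), and for the media contrast from 4 (without day 3) to 131 (without day 1) in place of 33; sums of entries gave 21, genes alone at their locus 19 and the slope over days 288. At 2-fold in place of 1.5-fold, 0 genes passed at day 2 and in proliferating progenitors, and 1 at day 3; at day 0, 1 gene, Ccnd2, passed with the median ratio set to 0 and with upper-quartile scaling. Small values changed sign: over the stages Cdk2 was 0.0056 with upper-quartile scaling and Myc -0.0036 with a pseudocount of 1, and with 1 stage left out Ccne2 ranged from -0.018 to 0.13, Cdk2 from -0.043 to 0.017 and Myc from -0.12 to 0.12. For the media contrast Cdk2 was -0.016 and -0.035, and Cdk4 -0.013 and -0.032, with the median ratio set to 0 and with upper-quartile scaling, and with 1 stage left out Ccnd2 ranged from -0.40 to 0.083, Cdk2 from -0.14 to 0.15, Cdk4 from -0.055 to 0.070 and Cdk6 from -0.099 to 0.13. The ratio of Myc at day 4 was a log2 value of 0.53, under 1.5-fold, with a pseudocount of 1. The causes were not tested. Of all alternative values, 682 kept their direction and side of the threshold, or their size, 23 moved in size, 19 changed sign, 16 passed a threshold that the reported value did not, and 1 no longer passed. The fits pair the genotypes by stage, and with 1 sample per group there are no replicate numbers to pair. Without read depth, no limit can be set for low levels such as Cdk6 and Myc at day 4.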
